A study of Mus musculus with 11 samples.

Results

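The centrosomal protein genes described here are the protein-coding mouse genes whose symbol is Cep followed by a digit, together with Pcnt, Cdk5rap2, Nin, Ninl, Ofd1 and Pcm1. The rule uses names and gene types alone and gave 42 genes, 36 of the Cep series and 6 added by name, among 35056 genes with a transcript in the tables. The study asked how radiotherapy acts on small cell lung cancer (SCLC), and for this data set the KP1 line, a mouse SCLC line, was sequenced in bulk after culture. The 2 control libraries, numbered 2 and 3, came from untreated cells, and the 3 irradiated libraries, numbered 1 to 3, came from cells collected 24 h after 5 Gy. No transgene, knockout or second agent separates the groups, and all 5 libraries come from the same line. The study describes KP1 as mutant for Rb and p53. Nothing in the labels says that libraries of a group came from separate cultures, so the p values measure the spread between these libraries, which may be technical.

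The centrosome is the main microtubule-organizing centre of animal cells. It is a pair of centrioles, joined by a flexible linker and wrapped in pericentriolar material, from which microtubules grow. Centrioles are copied in step with DNA replication, the pericentriolar material expands before mitosis to build the spindle poles, and in resting cells the older centriole can carry a primary cilium. Many of the proteins named Cep were found in screens for centrosome components and are long coiled-coil scaffolds.

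The libraries held 21185956 to 31036317 estimated reads, and 40 of the 42 genes passed edgeR's filter on low counts. Cep126 had 1 read in irradiated replicate 2 and none in the other libraries. Cep295nl had 9 reads in irradiated replicate 3 and none elsewhere. A count of 0 allows up to 3 reads, and neither gene could be compared at this depth. Neuroendocrine markers were present in every library, with a summed level of 2630 to 2787 TPM (an abundance scaled for transcript length, with the same total in each library) in the controls and 2585 to 2781 TPM after irradiation. Of the 8 markers 1 (Ncam1) was called lower and 3 (Uchl1, Calca and Syp) higher, against 13.0% and 12.7% of all genes tested. With an offset for transcript length, described further on, 0 were called lower and 0 higher. The 7 leukocyte markers summed to 4.55 to 7.03 TPM in the controls and 1.16 to 1.62 TPM after irradiation, and Cd3e, Csf1r and Lyz2 had at most 3 reads in every library. The 7 fibroblast markers summed to 66.2 to 82.6 TPM and 46.2 to 58.9 TPM, with Pdgfra the largest part in every library and Col3a1 at 0 reads throughout. Of these markers 1 leukocyte and 3 fibroblast genes had enough reads to be tested, and none of the 4 was called. Their part in the results was not tested.

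Of the 40 genes tested, 18 were lower in irradiated than in control cells at an adjusted p under 0.05 (edgeR's quasi-likelihood test, Benjamini-Hochberg adjustment over 14106 genes), against 13.0% of all genes tested. None was higher, against 12.7% of all genes tested, and none was higher at an unadjusted p under 0.05 either. DESeq2 also called 18 lower and 0 higher. The median log2 fold change was −0.48 for the 40 genes and 0.02 for all genes tested. Log2 fold changes of the 18 genes ran from −1.74 to −0.57 with standard errors of 0.14 to 0.25. In 27 of the 40 genes every irradiated library lay below both controls, against 29.3% of all genes tested, and these 27 hold all 18 of the genes called. In a bulk library, fewer cells that make a transcript and less of it per cell cannot be told apart.

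Summed over all 42 genes, the centrosomal transcripts took 0.330% and 0.306% of the reads in control replicates 2 and 3. They took 0.198%, 0.182% and 0.199% in irradiated replicates 1, 2 and 3. On the TPM scale the sums were 1533 and 1429 in the controls and 780.0, 720.0 and 823 after irradiation. The groups did not overlap on either scale.

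**Figure D1:**
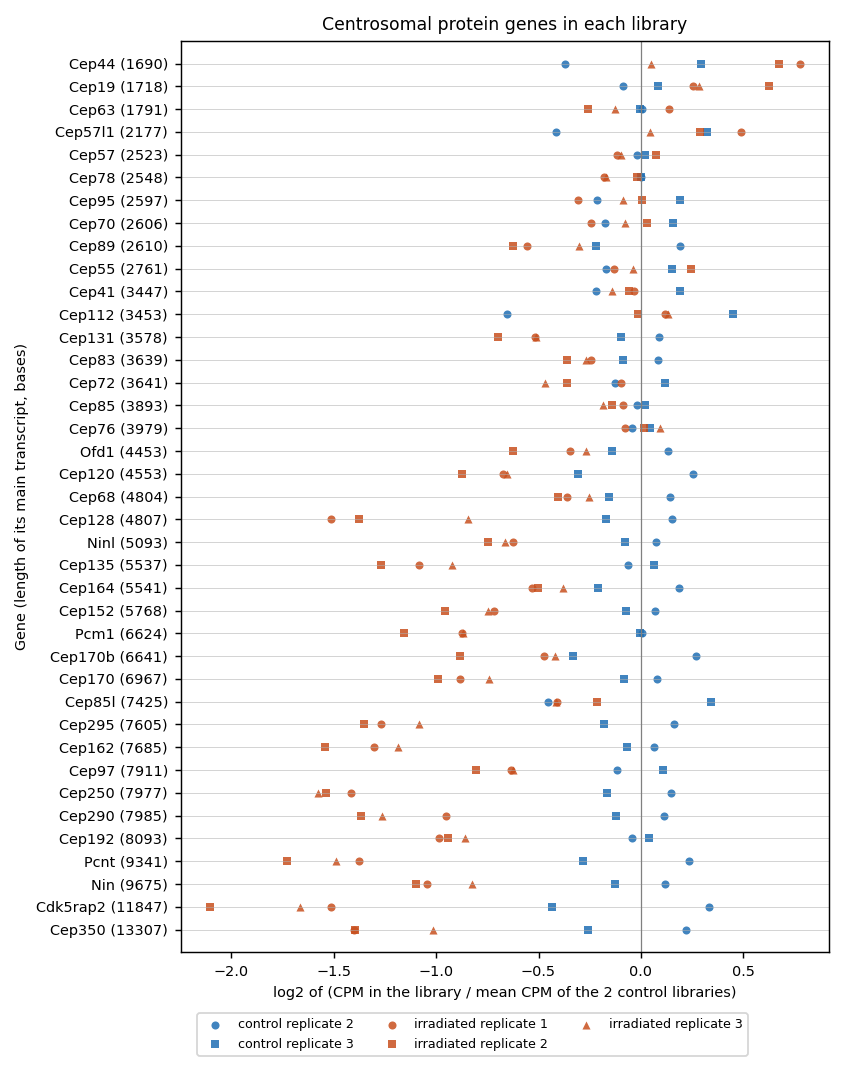
Each point is the read count of a gene in a library, in CPM (reads scaled to library size, with TMM factors), divided by the mean of the 2 control libraries and put on a log2 scale, for 39 of the 40 genes tested, ordered by the length of the main transcript. The irradiated libraries (orange) lie near or above the controls (blue) for Cep44, at 1690 bases, and well below them for Cdk5rap2, at 11847 bases.

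The 3 genes of the pericentriolar material were all called lower, with a median log2 fold change of −1.52. Among genes with a main transcript within 10% of the length of theirs, 63.7% to 64.6% were called lower too, and an offset for transcript length, described further on, left 1 of the 3 calls. Values in each library are given as CPM, reads scaled to the library's size with TMM factors, always in the order control replicates 2 and 3 and irradiated replicates 1, 2 and 3. Pericentrin, encoded by Pcnt, is the scaffold on which the pericentriolar material is laid down. Pcnt (ENSMUSG00000001151, GRCm38 chromosome 10, 76351263 to 76442786) stood at 233 and 163 CPM in control replicates 2 and 3 and at 76.1, 59.7 and 70.4 CPM in irradiated replicates 1, 2 and 3. Its highest irradiated library was below its lowest control, and the log2 fold change was −1.52 (SE 0.19, adjusted p = 0.00825, edgeR). Cdk5rap2 (chromosome 4, 70216856 to 70410443) recruits the γ-tubulin ring complexes that start microtubules. It had 477 and 281 CPM in the controls and 133, 88.3 and 120 CPM after irradiation, with a log2 fold change of −1.74 (SE 0.25, adjusted p = 0.00886, edgeR). The 2 controls of Cdk5rap2 lay far apart, and both stayed above every irradiated library. Without control replicate 2 the log2 fold change was −1.28. Cep192, which brings mitotic kinases to the pericentriolar material, had 73.2 and 77.6 CPM in the controls and 38.1, 39.3 and 41.6 CPM after irradiation. The groups of Cep192 did not overlap, and the log2 fold change was −0.93 (SE 0.14, adjusted p = 0.00901, edgeR).

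The linker that holds the pair of centrioles together is built on rootletin and on the product of Cep250, also called C-Nap1. Cep250 (chromosome 2, 155956458 to 155998900) had 98.8 and 79.5 CPM in the controls and 33.5, 30.7 and 29.9 CPM after irradiation. The irradiated libraries lay close together and far below both controls (log2 fold change −1.51, SE 0.15, adjusted p = 0.00825, edgeR). Cep68, a second linker component, was not called, at 93.0 and 75.7 CPM in the controls and 65.6, 63.7 and 70.8 CPM after irradiation (adjusted p = 0.131, edgeR), although its groups did not overlap. Pcnt, Cdk5rap2 and Cep250 were the 3 genes that also passed a log2 fold change of −1.5, which 1.90% of all genes tested passed. Without control replicate 2 their log2 fold changes were −1.22, −1.28 and −1.32, so none passed it. Without irradiated replicate 2 the count was 1 (Cdk5rap2), and without irradiated replicate 3 it was 2 (Cdk5rap2 and Pcnt).

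Of 11 genes for the copying, elongation and capping of centrioles, 5 were called lower and none higher, against 13.0% and 12.7% of all genes tested, with a median log2 fold change of −0.14. Called lower were 0.774% to 60.8% of the genes of like length, and with the length offset 1 of the 11 was called. Cep295, needed for a new centriole to become a working centrosome, had 182 and 144 CPM in the controls and 67.8, 63.8 and 77.0 CPM after irradiation. No irradiated library of Cep295 (chromosome 9, 15316915 to 15357788) reached a control, and the log2 fold change was −1.23 (SE 0.16, adjusted p = 0.00825, edgeR). Cep135, a part of the centriole wall and its cartwheel, had 31.5 and 34.3 CPM in the controls and 15.5, 13.7 and 17.4 CPM after irradiation (log2 fold change −1.08, SE 0.18). Cep152, the scaffold that recruits the duplication kinase Plk4, had 43.8 and 39.7 CPM and then 25.4, 21.6 and 24.9 CPM (log2 fold change −0.80, SE 0.16). In both genes the groups were separate.

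Cep120, which acts in centriole elongation, had 125 and 84.9 CPM in the controls and 65.8, 57.2 and 66.7 CPM after irradiation (log2 fold change −0.73, SE 0.19). Cep97, which caps the far end of the centriole with Ccp110, had 61.8 and 72.1 CPM and then 43.1, 38.3 and 43.4 CPM (log2 fold change −0.69, SE 0.15). All irradiated libraries of both genes were below both controls, with the smallest gap at Cep120. The 6 other genes of this group, Cep63, Cep57, Cep57l1, Cep85, Cep76 and Cep44, were not called, with log2 fold changes of −0.14 to 0.53. Cep44, a protein of the proximal centriole, gave the highest log2 fold change of the 40 genes, 0.53 (SE 0.28, adjusted p = 0.191, edgeR), from 13.7 and 21.7 CPM in the controls and 30.2, 28.2 and 18.2 CPM after irradiation. Its irradiated replicate 3 lay between the controls, so the groups overlapped.

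The older centriole carries distal and subdistal appendages. Distal appendages dock the centriole at the membrane, and none of their 3 genes was called. The log2 fold changes of Cep83, Cep89 and Cep164 ran from −0.49 to −0.29. In all 3 every irradiated library was below both controls, against 29.3% of all genes tested. With the length offset their log2 fold changes were −0.20, −0.60 and −0.02, and none was called. Cep89 had 68.7 and 51.8 CPM in the controls and 40.9, 39.1 and 48.8 CPM after irradiation, and Cep164 had 48.9 and 37.2 CPM and then 29.8, 30.4 and 33.1 CPM. Both had an adjusted p of 0.0762 (edgeR), close to the threshold. Whether the appendage groups differ from each other was not tested.

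Subdistal appendages anchor microtubules, and 5 of 7 genes assigned to them or to anchoring nearby were called lower, against 13.0% of all genes tested and 0.852% to 66.0% of the genes of like length, with a median log2 fold change of −0.87. With the length offset 1 of the 7 was called, and the median was −0.16. Cep128, a part of the subdistal appendage, had 65.2 and 52.1 CPM in the controls and 20.6, 22.6 and 32.6 CPM after irradiation. The irradiated libraries of Cep128 (chromosome 12, 90998492 to 91384409) were uneven and still lay below both controls (log2 fold change −1.22, SE 0.22, adjusted p = 0.0106, edgeR). Cep350, a large protein that stabilizes microtubules at the centrosome, had 125 and 89.6 CPM and then 40.5, 40.7 and 53.1 CPM (log2 fold change −1.26, SE 0.20). Nin, encoding the anchoring protein ninein, had 133 and 112 CPM and then 59.5, 57.4 and 69.3 CPM (log2 fold change −0.98, SE 0.16). In each of these genes the highest irradiated library was well below the lowest control.

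Cep170, a marker of the mature centriole, had 398 and 356 CPM in the controls and 204, 190 and 225 CPM after irradiation (log2 fold change −0.87, SE 0.15). Ninl, a relative of ninein, had 58.7 and 52.7 CPM and then 36.2, 33.2 and 35.1 CPM (log2 fold change −0.68, SE 0.15). Neither gene's groups overlapped. The paralog Cep170b was not called, at 159 and 105 CPM in the controls and 95.1, 71.7 and 98.8 CPM after irradiation (log2 fold change −0.58, SE 0.22, adjusted p = 0.0808, edgeR). Cep19, a small protein that works with Cep350 at the cilium base, was the 1 gene with every irradiated library above both controls (30.1% of all genes tested were), at 14.2 and 15.9 CPM and then 18.0, 23.2 and 18.3 CPM. Its log2 fold change was 0.40 (SE 0.20) and did not pass the test (adjusted p = 0.176, edgeR).

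Centriolar satellites are granules that carry proteins to the centrosome, and Pcm1 is their scaffold. Pcm1 had 388 and 386 CPM in the controls and 211, 174 and 212 CPM after irradiation, with nearly equal controls and a log2 fold change of −0.96 (SE 0.15, adjusted p = 0.00919, edgeR). Cep131, another satellite protein, had 55.6 and 48.9 CPM and then 36.6, 32.2 and 36.6 CPM, and its log2 fold change of −0.57 (SE 0.15, adjusted p = 0.0294, edgeR) was the smallest in size among the genes called. The satellite genes Ofd1 and Cep72 were not called (adjusted p = 0.134 and 0.355, edgeR). Ofd1 had 35.4 and 29.3 CPM in the controls and 25.5, 21.01 and 26.9 CPM after irradiation. The groups of Ofd1 were separate and those of Cep72 overlapped.

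Among 5 genes of the cilium and its base, Cep162 and Cep290 were called lower, against 13.0% of all genes tested. Of the genes of like length 2.54% to 62.3% were called lower, and with the length offset 1 of the 5, Cep162, was called. Cep162 (chromosome 9, 87189577 to 87255536), which binds the end of the axoneme, the microtubule core of the cilium, and helps to assemble the transition zone, had 59.6 and 54.4 CPM in the controls and 23.1, 19.6 and 25.1 CPM after irradiation (log2 fold change −1.33, SE 0.17, adjusted p = 0.00825, edgeR). Cep290, a transition zone protein, had 37.0 and 31.5 CPM and then 17.7, 13.3 and 14.2 CPM (log2 fold change −1.18, SE 0.19, adjusted p = 0.00919, edgeR). Both genes had separate groups with the irradiated libraries lower. Cep41 and Cep78 were not called, at −0.08 and −0.12. Cep55, which acts at the midbody when daughter cells separate, had 30.3 and 37.8 CPM in the controls and 31.1, 40.4 and 33.2 CPM after irradiation, with overlapping groups and an adjusted p of 0.911 (edgeR). Cep70, Cep95, Cep112 and Cep85l, which were put in no role group, were not called either, with log2 fold changes of −0.34 to 0.08.

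The number of calls rested in part on control replicate 2. Without it, when the lone control was assumed to vary like the irradiated group, 8 genes were called lower, all of them among the 18, and 1.20% of all genes tested were called lower. Cep120, Cep128, Cep131, Cep152, Cep170, Cep290, Cep350, Cep97, Nin and Ninl lost their calls there. Leaving out control replicate 3 gave 20 calls, among them 17 of the 18, with Cep97 lost and Cep89, Cep164 and Cep170b added. Without irradiated replicate 1, 2 or 3 the counts were 16, 14 and 17. Over all genes tested, 909, 834 and 1460 were called lower there, against 1827 with every library. The calls lost were of Cep120, Cep131, Cep97 and Ninl. Cdk5rap2, Cep135, Cep162, Cep192, Cep250, Cep295, Pcm1 and Pcnt kept their calls whichever library was left out.

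These genes have long transcripts. The main transcript, the one with the most reads over the libraries, had a median length of 4806 bases in the 40 genes tested and 3034 bases in the 13636 protein-coding genes tested. Their coding part had a median of 2991 bases against 1359, and the main transcript had a median of 20.5 exons against 8. The libraries themselves differed along this axis, since the average transcript, weighted by its reads, was 4729 to 5463 bases long in the controls and 3625 to 3998 bases after irradiation. Whether that shift came from the cells or from the libraries cannot be told apart in this design.

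Within the 40 genes, the log2 fold change followed the length. Across genes, which are not independent replicates and share the same 5 libraries, its Pearson correlation with log2 transcript length was −0.87 (Spearman −0.88, n = 40), against −0.54 (Spearman −0.63) over 13209 protein-coding genes with an annotated coding part. No gene with a main transcript under 3578 bases was called. Of the 4 genes under 2500 bases, Cep44, Cep19, Cep63 and Cep57l1, none was called lower, against 2.46% of all genes of that length, and their median log2 fold change was 0.34. Of 17 genes from 2500 to 5000 bases, 3 were called lower (Cep131, Cep120 and Cep128), which is 17.6% against 8.49%. Of 19 genes of 5000 bases or more, 15 were called lower, which is 78.9% against 43.3%, and the median log2 fold change was −0.96 against −0.62 for all genes of that length. Cep164, Cep170b and Cep85l were among the 4 long genes without a call.

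**Figure D2:**
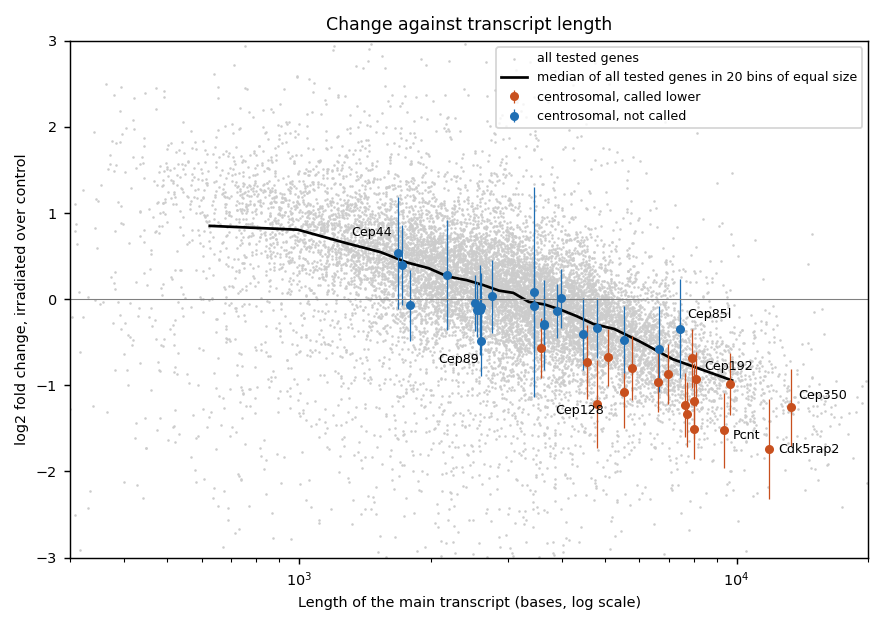
The log2 fold change of irradiated over control cells is plotted against the length of the main transcript (log scale) for all genes tested (grey, 174 genes lie outside the plotted range) and for 39 of the 40 centrosomal genes with their 95% confidence intervals (orange if called lower, blue if not). The black line joins the medians of 20 bins of all genes tested and falls with length, and most of the centrosomal genes lie on or below it.

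Set beside protein-coding genes whose main transcript was within 10% of its own length, 34 of the 40 genes had a log2 fold change below the median of those genes. The difference from that median was −0.24 at the middle gene and ran from −0.94 to 0.36. Cep128 stood furthest below, at −1.22 against a median of −0.28 over 1411 genes of like length, of which 4.46% had a lower value than Cep128. Cep250 stood 0.75 below the median of 505 genes, with 5.54% of them lower still. Cdk5rap2 was at −1.74 against −0.99 over 147 genes, with 5.44% lower. By contrast, Nin at −0.98 stood beside −0.89 over 288 genes, and Cep350 at −1.26 beside −1.12 over 75 genes. Cep97 and Cep170b were also close to the genes of their length, and Cep85l lay 0.36 above them.

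An offset that takes out each library's own trend with transcript length, fitted over all genes, was then added to the test. It removes any such trend, whether technical or biological. With it, 5 of the 40 genes were called lower (12.5%), against 2.16% of all genes tested, and none was called higher, against 2.99%. The 5 genes were Cep128, Cep250, Pcnt, Cep162 and Cep295, all among the 18. The median log2 fold change went to −0.20, against 0.04 for all genes tested, and 30 of the 34 genes below 0 without the offset were below 0 with it. Cep85, Cep85l, Cep97 and Cep170b turned above 0, and Cep19 and Cep55 turned below 0, none of them called with the offset. In the group of 5000 bases or more, 4 of 19 genes were called lower (21.1%), against 2.28% of all genes of that length.

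Cep128 kept most of its difference, with a log2 fold change of −0.90 (SE 0.19, adjusted p = 0.0406, edgeR with the length offset). Cep250 was at −0.76 (SE 0.14, adjusted p = 0.0335, edgeR), Pcnt at −0.66 (SE 0.14, adjusted p = 0.0402, edgeR), Cep162 at −0.64 (SE 0.13, adjusted p = 0.0402, edgeR) and Cep295 at −0.53 (SE 0.12, adjusted p = 0.0437, edgeR). All 5 lie near the threshold, and without control replicate 2 the same offset gave no call among the 40 genes and 1 lower call among all genes. Cep135 and Cdk5rap2 came next, at −0.65 (adjusted p = 0.0544, edgeR) and −0.70 (adjusted p = 0.0551, edgeR). The log2 fold changes of Nin and Cep350 came to −0.11 and −0.16, and that of Cep97 turned to 0.02 (adjusted p = 0.952, edgeR).

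**Figure D3:**
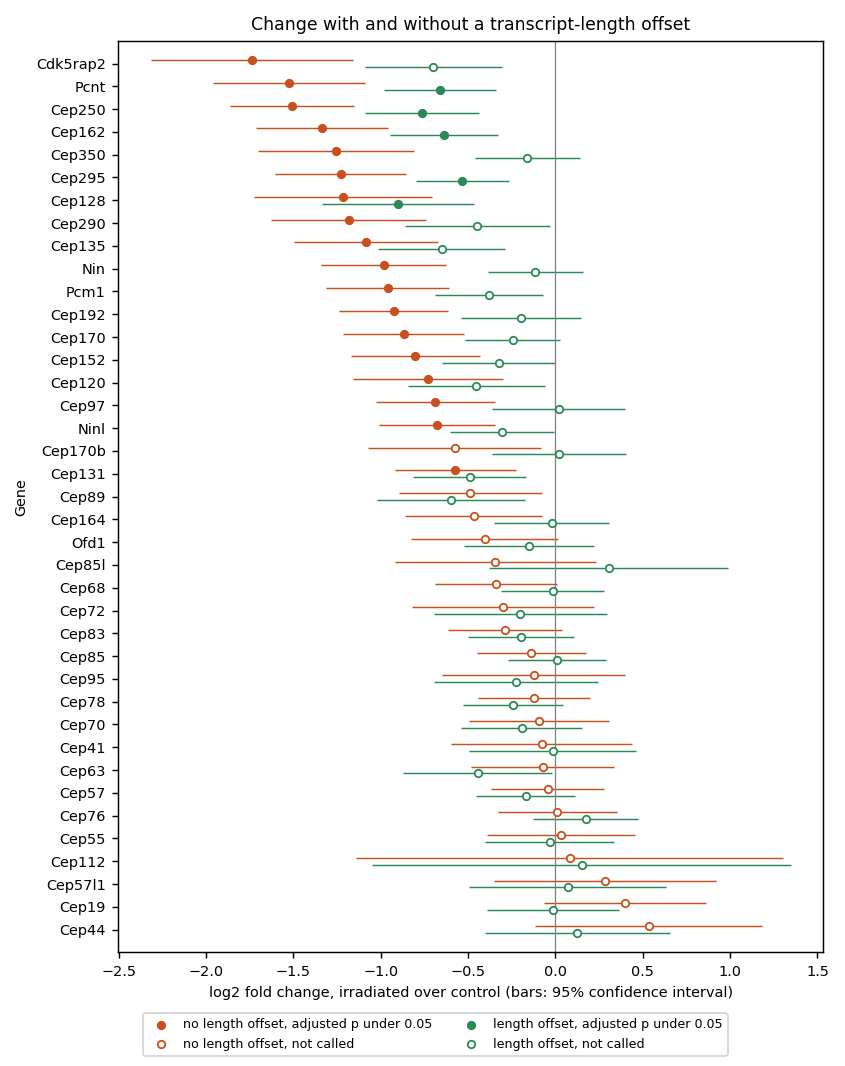
For 39 of the 40 genes, the log2 fold change of irradiated over control cells is given without (orange) and with (green) the length offset, with 95% confidence intervals, and filled symbols have an adjusted p under 0.05. With the offset most values move toward 0, and Cep128, Cep250, Pcnt, Cep162 and Cep295 are the 5 filled green symbols.

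The offset is fitted on total length and does not use the coding part. With it, the correlation of the log2 fold change with log2 transcript length was −0.29 (Spearman −0.30) across the 40 genes, and that with log2 coding length was −0.47 (Spearman −0.51). The correlation with the number of exons was −0.52 (Spearman −0.58), while that with log2 untranslated length was 0.23 (Spearman 0.26). Over the 13209 protein-coding genes the values were −0.12 (Spearman −0.22) for coding length and −0.07 (Spearman −0.16) for exons.

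Levels between genes were compared in TPM, which is scaled for length. In control cells the highest were Cep170, with 141 and 129 TPM, Pcm1, with 127 and 127 TPM, and Cdk5rap2, with 136 and 76.8 TPM. After irradiation Cep170 had 53.7, 48.5 and 63.5 TPM, Pcm1 had 59.5, 44.6 and 64.2 TPM, and Cdk5rap2 had 36.2, 19.1 and 26.8 TPM. None of these reached its controls. Cep57, next in the order, had 85.2 and 96.6 TPM in the controls and 54.5, 60.6 and 57.2 TPM after irradiation, a level within reach of Cep170 and Pcm1 in the same libraries. TPM is relative to the length-scaled total of a library, and on this scale the median of all genes tested also fell, by 0.26 on the log2(TPM + 1) scale. At the low end, Cep112 had 1.95 and 1.51 TPM in the controls and 2.50, 0.940 and 1.65 TPM after irradiation, above Cep126 and Cep295nl, which were listed at 0 in both controls. Of the 41 pairs of neighbours in the order of control levels, 34 had overlapping control values and 7 did not.

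**Figure D4:**
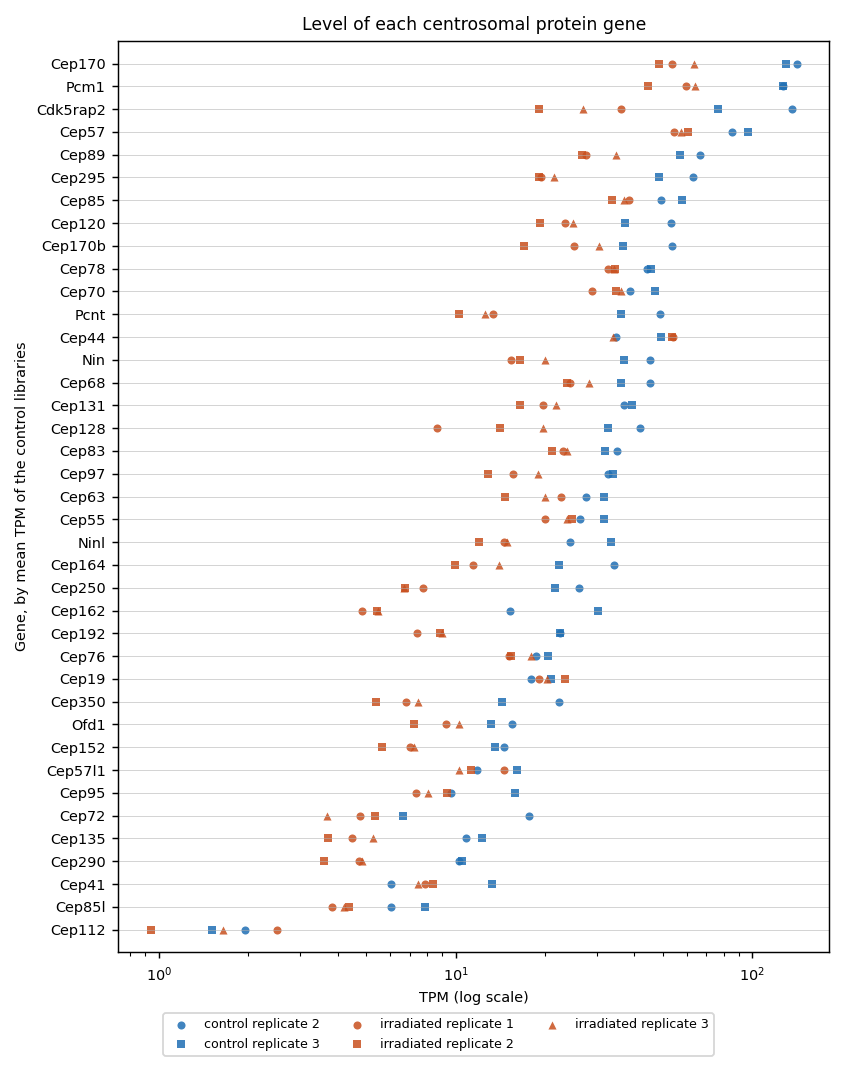
The level in TPM (log scale) is given in each library for 39 of the 40 centrosomal genes with a control mean above 1 TPM, ordered by that mean. Control levels run from about that of Cep112, at 1.51 TPM in control replicate 3, to that of Cep170, at 141 TPM in control replicate 2, and the irradiated libraries (orange) of most genes lie to the left of the controls (blue).

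Annotated transcripts of these genes include many that are not classed as protein coding, such as those with a retained intron. They took 10.7% and 8.36% of the reads of the 42 genes in control replicates 2 and 3 and 6.40%, 6.33% and 6.60% in irradiated replicates 1, 2 and 3. In other protein-coding genes the share was 5.76% and 6.01% in the controls and 4.10%, 4.73% and 4.57% after irradiation. The pooled centrosomal share was the larger in every library, and both pooled shares were lower after irradiation. Pooling gives genes with many reads the most weight. Cdk5rap2, with 13634 and 7481 reads in the controls, had shares of 28.2% and 20.4% there. Cep170, with 11355 and 9476 reads, had 22.5% and 18.3%, and Pcm1, with 11067 and 10278 reads, had 3.43% and 2.18%. Whether the larger share holds without Cdk5rap2 and Cep170 was not tested. Of 31 genes with such a transcript and at least 50 reads in every library, 12 had a lower share in all irradiated libraries than in both controls (38.7%), against 35.4% of 8616 protein-coding genes, which is close to that background. Without control replicate 3 the count was larger, but with 1 control left the rule is easier to meet for any gene. No share over all genes is given for that case. Another 3 genes had a higher share in all irradiated libraries (9.68%), against 4.49%. The smallest two-sided p of an exact permutation test is 0.1 for groups of these sizes.

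In Cep44 the share fell from 23.3% and 27.8% in the controls to 5.42%, 6.62% and 10.1% after irradiation (exact permutation p = 0.1, the smallest possible). Over the same libraries the coding transcript Cep44-201 went from 154 and 332 reads to 572, 436 and 377 reads. In Cep63 the share was 26.0% and 12.2% in the controls and 1.82%, 2.79% and 5.32% after irradiation (exact permutation p = 0.1). The 3 genes with a higher share were Cep290, Cep128 and Cep295, all called lower as whole genes. For Cep290 the share was 3.76% and 6.41% in the controls and 13.9%, 14.2% and 19.4% after irradiation (exact permutation p = 0.1). These reads are estimates that Salmon divides among overlapping transcripts.

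Nin gave a case where that division matters, chosen after its values were seen. The transcript Nin-204 had 663 and 660 estimated reads in the controls and none in any irradiated library. Nin-201, which has the same exon boundaries at 27 of its 30 exons, had 383 and 267 reads in the controls and 380, 236 and 473 reads after irradiation. Summed, the pair had 1045 and 927 reads and then 380, 236 and 473 reads. The sum is lower after irradiation, as for the gene as a whole, but which of these near-identical transcripts changed cannot be told from these estimates.

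Other genes of the centrosome and the centriole, from a list of 55 symbols of which 53 were found and tested, moved in both directions. In all, 17 were called lower and 3 higher, against backgrounds of 13.0% and 12.7%, and the median log2 fold change was −0.26. With the length offset 5 were called lower, Aspm, Kif24, Wdr62, Stil and Sass6, and none higher. Aspm, which focuses spindle poles and is mutated in microcephaly, had 442 and 315 CPM in the controls and 104, 101 and 132 CPM after irradiation (log2 fold change −1.75, SE 0.20, adjusted p = 0.00825, edgeR). Wdr62, another spindle pole protein mutated in microcephaly, had 113 and 86.8 CPM and then 33.6, 33.8 and 39.3 CPM (log2 fold change −1.49, SE 0.17, adjusted p = 0.00825, edgeR). Kif24, a kinesin that acts with Ccp110, had 41.6 and 30.4 CPM and then 13.5, 11.5 and 12.6 CPM (log2 fold change −1.52, SE 0.20, adjusted p = 0.00825, edgeR). Crocc, encoding the linker protein rootletin, had 205 and 194 CPM and then 91.4, 94.1 and 99.1 CPM (log2 fold change −1.07, SE 0.13, adjusted p = 0.00825, edgeR). In each of these genes the groups lay far apart.

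Of the genes at the core of centriole duplication, Stil and Sass6 were called lower and Plk4 was not. Plk4, the kinase that starts duplication, had 59.8 and 68.6 CPM in the controls and 64.7, 53.4 and 55.7 CPM after irradiation, with overlapping groups (log2 fold change −0.15, SE 0.16, adjusted p = 0.509, edgeR). Its partner Stil had 115 and 83.5 CPM and then 42.3, 35.9 and 44.9 CPM (log2 fold change −1.27, SE 0.18, adjusted p = 0.00869, edgeR). Sass6, which forms the hub of the cartwheel, had 65.9 and 70.0 CPM and then 40.9, 36.9 and 38.5 CPM (log2 fold change −0.81, SE 0.14, adjusted p = 0.00956, edgeR). The groups of Stil and of Sass6 were separate. The main transcript of Sass6 has 1894 bases, and protein-coding genes within 10% of that length had a median log2 fold change of 0.40. With the length offset Sass6 was at −1.14 (adjusted p = 0.0268, edgeR) and Stil at −0.87 (adjusted p = 0.0323, edgeR). Cenpj, a centriole elongation factor, was not called, at 27.1 and 33.1 CPM and then 24.8, 19.7 and 22.2 CPM (adjusted p = 0.111, edgeR).

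Ccp110, which caps centrioles, was called lower with a log2 fold change of −0.63 (SE 0.14), from 196 and 213 CPM to 139, 128 and 129 CPM. Akap9, a large anchoring protein of the centrosome and Golgi, had 288 and 137 CPM in the controls and 73.2, 56.0 and 70.4 CPM after irradiation (log2 fold change −1.67, SE 0.28). Cntrl, encoding centriolin, had 48.3 and 54.0 CPM and then 25.7, 25.9 and 27.3 CPM (log2 fold change −0.96, SE 0.15). In these 3 every irradiated library lay below both controls, against 29.3% of all genes tested, and none was called with the length offset. Of the genes of like length, 19.9% for Ccp110, 65% for Akap9 and 29.8% for Cntrl were called lower. Tubg1, encoding γ-tubulin, had 90.4 and 89.4 CPM and then 124, 105 and 97.6 CPM and was not called (log2 fold change 0.28, SE 0.16, adjusted p = 0.214, edgeR).

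The 3 genes called higher encode small proteins and have main transcripts of 862 to 1286 bases. Cetn2, a centrin of the centriole lumen that also serves in nucleotide excision repair, had 13.3 and 15.8 CPM in the controls and 31.8, 34.7 and 28.7 CPM after irradiation (log2 fold change 1.13, SE 0.19, adjusted p = 0.00922, edgeR). Mzt2, a subunit of the γ-tubulin ring complex, was at 1.00 (SE 0.26, adjusted p = 0.0290, edgeR) and Ssna1, a small microtubule-binding protein, at 0.98 (SE 0.26, adjusted p = 0.0302, edgeR). All irradiated libraries of the 3 genes lay above both controls. Genes within 10% of their lengths had median log2 fold changes of 0.68, 0.83 and 0.94, and with the length offset none of the 3 passed the test, with Cetn2 at 0.56 (adjusted p = 0.0591, edgeR). Without irradiated replicate 1 or 2 the list had 1 gene called higher, against 832 and 684 of all genes. Without irradiated replicate 3 it had 4, against 1557 of all genes. With every library 1786 of all genes were called higher. Leaving out either control also changed how many of the list were called, but it leaves 1 control, so no count is given.

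**Figure D5:**
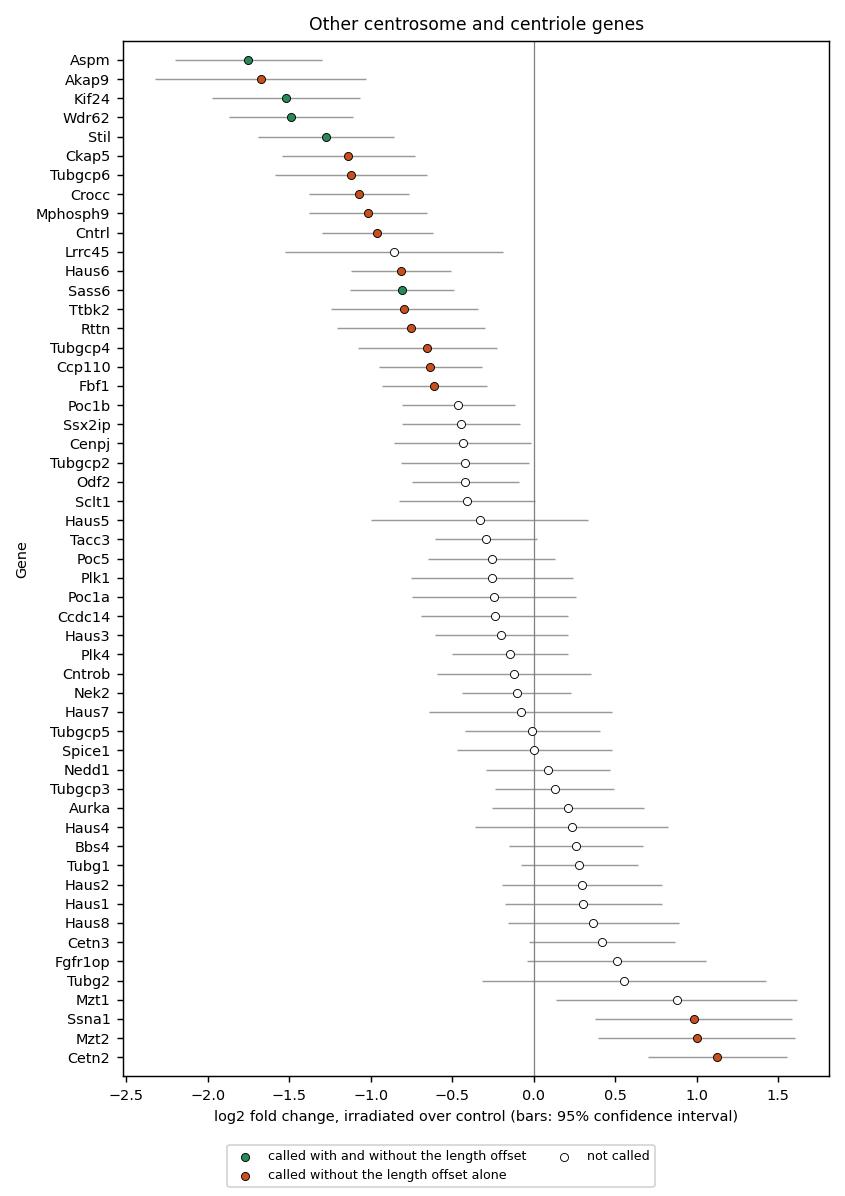
The log2 fold change of irradiated over control cells, with its 95% confidence interval, is given for the 53 other centrosome and centriole genes tested. Genes called lower run from Aspm at −1.75 upward on the left, the 3 genes called higher lie at the bottom right, and the 5 green symbols were called with and without the length offset.

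The sequence before the start of these genes was read from RefSeq promoter windows on GRCm38.p6, of which 35 of the 42 genes had at least 1. The 250 bases before the start had a median GC content of 61.0% in the 44 windows of these genes and 52.4% in all 32851 windows. Motifs of cell cycle genes were counted on both strands. The E2F site TTTCGCGC was in 1 of the 44 windows, that of Cep63 (2.27% against 0.256% of all windows). The E2F site TTTGGCGC was in none (0.417% of all windows), and the E2F site TTTCCCGC was in 1, that of Cep128 (2.27% against 0.895%). The cell cycle homology element TTTGAA was in 7 windows (15.9% against 16.0%), and its form TTCGAA was in 1, that of Cep152 (2.27% against 1.34%). The CCAAT box was in 17 windows (38.6% against 33.8%). A match describes letters and does not show a working site, and the absence of a match says nothing about a factor.

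The windows of 4 of the 5 genes called lower with the length offset are printed 5′ to 3′ on the strand of the gene, with matches to the 6 motifs in capitals. That of Cep250 is not printed because 100 of its bases lie in the gene as GENCODE annotates it, as do 4 bases at the end of the window of Cep162. The capitals in Cep128 mark TTTCCCGC read on the opposite strand, and those in Cep162 mark TTTGAA read on the opposite strand. Cep295 and Pcnt had no match. The windows lie on the minus strand, at chr12:91384410-91384659 for Cep128, chr9:87255533-87255782 for Cep162, chr9:15357789-15358038 for Cep295 and chr10:76442913-76443162 for Pcnt.
Cep128: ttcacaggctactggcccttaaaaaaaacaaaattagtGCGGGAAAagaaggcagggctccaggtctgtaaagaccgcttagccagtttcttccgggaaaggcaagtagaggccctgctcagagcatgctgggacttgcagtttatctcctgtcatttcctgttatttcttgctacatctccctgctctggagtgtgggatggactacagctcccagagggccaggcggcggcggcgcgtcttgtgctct
Cep162: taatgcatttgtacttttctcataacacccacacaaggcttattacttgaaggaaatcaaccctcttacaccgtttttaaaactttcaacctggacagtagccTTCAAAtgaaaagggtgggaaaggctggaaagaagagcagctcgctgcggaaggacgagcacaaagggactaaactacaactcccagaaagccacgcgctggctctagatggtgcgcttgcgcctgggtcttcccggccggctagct
Cep295: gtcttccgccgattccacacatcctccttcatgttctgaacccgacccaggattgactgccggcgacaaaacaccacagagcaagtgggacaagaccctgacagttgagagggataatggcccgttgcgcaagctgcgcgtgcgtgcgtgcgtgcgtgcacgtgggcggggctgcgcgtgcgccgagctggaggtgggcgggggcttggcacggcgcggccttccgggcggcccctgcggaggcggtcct
Pcnt: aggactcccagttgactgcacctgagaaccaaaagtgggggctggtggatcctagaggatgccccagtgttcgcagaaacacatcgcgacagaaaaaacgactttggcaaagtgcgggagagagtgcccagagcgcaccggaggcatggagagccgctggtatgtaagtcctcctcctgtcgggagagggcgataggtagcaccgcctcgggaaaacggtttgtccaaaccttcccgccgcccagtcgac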

How the data were processed

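Total RNA of cultured KP1 cells was sequenced by a service provider. The authors quantified reads with Salmon (0.8.2 in the submitters' processing notes) at default settings against mm10 and deposited, per transcript, the estimated count of reads (expected counts, not scaled) and the TPM, an abundance scaled within each library. The transcript annotation release is not given in the sources used here. The authors' own comparison used DESeq2 (1.22.2 in the same notes). The single-cell samples were not analysed here.

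Transcripts were matched by identifier to GENCODE M21 on GRCm38 (112762 of 113116), counts were summed to genes and rounded, and TPM values were summed. Groups came from sample titles. edgeR 4.0.16 in R 4.3.3 tested irradiated against control libraries after filterByExpr and TMM scaling, with the quasi-likelihood test and no block, and genes with an adjusted p under 0.05 were called. Standard errors were derived from edgeR's test, as the size of the log2 fold change over the square root of its F statistic. Intervals are 95% and use these standard errors with a t quantile. The length offset was a natural spline with 5 degrees of freedom. Alternatives used DESeq2 1.42.0, limma 3.58.1 on log2(TPM + 1) and log2(TPM + 0.1), other scalings, filters and thresholds, and each library left out. The scripts were tested on simulated data. Floors of 3 reads cover counting error only. Plots used Python 3.11.15 with matplotlib 3.10.9.

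The genes, role groups, lists and tests were chosen with earlier results of these data known. Of the 42 genes, 1 is counted in the totals and not reported here on its own. The others could be named, with values in each library for those called, those whose call changed with the length offset, and the highest and lowest in TPM. Of the other centrosome genes, the 3 smallest p values in each direction and 8 listed genes were named, and Kif24 and Ttbk2 were added after their values were seen.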

Additional observations from a re-analysis of the deposited data

How the results depend on the processing

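Of the 18 calls among the centrosomal genes, all 18 were also made by DESeq2, by 3 other scalings (RLE, upper quartile, library size alone), by 3 other filters, by protein-coding transcripts alone, by the effective length offset (20 calls in all) and by limma on TPM (22 calls). The count moved to 5 with the length spline offset, to 3 with the log2 fold change threshold of 1.5, and to 0 with the length spline offset without control replicate 2, an alternative chosen after seeing the data. Leaving out each library gave 8 to 20 calls lower, and 0 calls higher. The median log2 fold change of −0.48 went to −0.42 with upper-quartile scaling, −0.39 with library size alone, −0.65 with effective lengths, −0.20 with the length spline, −0.59 with a GC spline, −0.96 and −0.99 with limma on log2(TPM + 1) and log2(TPM + 0.1), −0.23 with the length spline without control replicate 2, and between −0.59 and −0.37 with each library left out. The median of all genes moved to 0.07 with upper-quartile scaling, 0.10 with library size alone and −0.26 with limma on log2(TPM + 1). The cause of these moves was not tested.

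Both groups carry the replicate numbers 2 and 3. Over genes, the log2 ratios of replicate 2 to 3 in the 2 groups correlated at −0.20. With 1 such ratio per group this cannot show whether equal numbers mark a shared culture or batch, and the labels do not say. The block leaves irradiated replicate 1 without weight. With the replicate block 11 centrosomal genes were called lower, all among the 18. Over all genes 494 were called lower with it, against 1827 without it. With the block and the length spline 0 centrosomal genes were called lower, with a median log2 fold change of −0.18, and 2 of all genes were. With the block, 10 of the other centrosome genes were lower and 1 higher, against 494 and 602 of all genes. Exchanging these numbers among the irradiated libraries, an alternative added after seeing the data, called 23 centrosomal genes lower and 1 higher. Of all genes it called 2670 lower and 3026 higher.

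Of the other centrosome genes, the length spline left 5 lower and 0 higher, and leaving out each library gave 7 to 17 lower and 0 to 5 higher. The 12 genes with a lower share of reads on transcripts not classed as protein coding became 12 to 19 when a library was left out. With fewer libraries the rule is easier to meet for any gene, and no share over all genes is given for those cases. Of the genes tested, 6 of the 40 and 9 of the 53 others changed sign with the length spline, among them Cep55 (−0.0337), Cep85 (0.00927) and Ttbk2 (0.161), which was called lower without it (−0.794). The share of all genes tested that changed sign is not given, so these counts are not read as particular to centrosome genes. Of the genes followed through every alternative, signs turned for Cep97 (0.0192), Cep19 (−0.0128), Cep85l (0.304), Cep170b (0.0198) and Tubg1 (−0.0957) with the length spline, for Cep44 (−0.0289), Cep85l (0.395) and Cep164 (0.000204) with the block and the spline, for Cep44 (−0.0569), Cep170b (0.249) and Cep164 (0.136) with the spline without control replicate 2, and for Cep85l without control replicate 3 (0.127, and −0.668 without control replicate 2). Under these alternatives none of them had an adjusted p under 0.05. Depth limits the lowest genes, since Cep112, at 0.910 to 1.95 CPM, had the widest interval of the 40 (−1.14 to 1.30).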
